A study of Homo sapiens with 9 samples.

Results

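The 51 genes described here encode proteins of DNA replication and of the passage from G1 into S phase of the cell cycle. They were given as a list of symbols, and each was matched to the protein-coding gene of that symbol in GENCODE 29. All 51 were found among the 58735 genes of the count table, and all 51 passed the filter on low counts that left 18088 genes for testing. The RNA sequenced came from HEK293T, a line grown from human embryonic kidney in which the large T antigen of SV40 is expressed. Cells received siRNA at 10 nM for 36 h, either a negative control, an siRNA against PHF12 or an siRNA against SUDS3, and each gave 3 libraries. PHF12 and SUDS3 belong to SIN3 complexes, in which histone deacetylases act as transcriptional repressors. The labels name 1 siRNA per target, so loss of the target and other effects of that siRNA cannot be told apart, and they do not say whether the 3 libraries of a group came from separate cultures. Each p-value therefore sets a group difference against the spread between libraries, pooled over all 9 libraries, a spread that may be technical.

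In G1, CDC6 and CDT1 load a ring of MCM2 to MCM7 onto replication origins. At the start of S phase CDC45 and the 4 GINS proteins join the ring to form the active helicase, primase and the polymerases follow, and the clamp PCNA, placed by the RFC loader, holds polymerases on the template. Many of these genes are transcribed late in G1 under E2F factors, which retinoblastoma proteins restrain, and large T antigen binds retinoblastoma proteins. Levels below are in CPM, counts relative to the library total after TMM scaling, which adjusts for differences in library make-up. The share of cells in S phase was not measured, and fewer cells in a phase and less RNA per cell cannot be told apart in these bulk libraries.

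Each siRNA lowered the RNA of its target. With a control level of 50.3, 50.5 and 48.8 CPM, PHF12 was at 27.9, 24.5 and 28.3 CPM in the 3 libraries of its own siRNA (log2 fold change -0.89, SE 0.06, edgeR adjusted p = 1.88e-14). For SUDS3 the level was at 107, 114 and 112 CPM with the control siRNA and at 21.1, 22.3 and 22.9 CPM with its own siRNA (log2 fold change -2.33, SE 0.05, edgeR adjusted p = 1.82e-28). Neither target's knockdown libraries overlapped the controls. Each target also changed with the other siRNA. In the PHF12 knockdown libraries SUDS3 lay at 81.4, 80.1 and 81.5 CPM (log2 fold change -0.46, SE 0.05, edgeR adjusted p = 6.83e-10). In the SUDS3 knockdown libraries PHF12 lay at 59.5, 61.98 and 62.9 CPM (log2 fold change 0.30, SE 0.06, edgeR adjusted p = 7.19e-05). Library totals ran from 37962926 to 50946148 counts, and no member had fewer than 966 counts in any library. Marker levels here are CPM without TMM scaling. VIM was detected in all 9 libraries (544 to 769 CPM). Of the kidney and epithelial markers, KRT18 (68.7 to 84.2 CPM), SALL1 (38.9 to 46.6 CPM), EYA1 (15.9 to 34.9 CPM) and KRT8 (11.6 to 35.9 CPM) were detected in all 9 libraries. LHX1 (2.66 to 4.15 CPM) and PAX2 (0.944 to 2.32 CPM) were detected in all 9 at low levels, while PAX8 had at most 4 counts. Of markers of other cell types, PTPRC, INS and MYH7 had no count in any library, ALB had at most 12 counts and PECAM1 at most 16, and COL1A1 lay between 11.2 and 22.6 CPM. Of the 51 members, 21 overlap a tested gene or have pseudogenes named after them, 12 of them with a tested gene on the opposite strand, so their counts can hold reads of other genes.

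Many members changed with each siRNA, by small amounts and in both directions. With the PHF12 siRNA, 19 members rose, 15 fell and 17 did not pass (edgeR quasi-likelihood test, Benjamini-Hochberg adjusted p under 0.05 over all genes tested). Over all 18088 genes, 14.8% were called higher and 17.1% lower. A further background, not matched on level, is the 7266 protein-coding genes with a mean CPM at or above that of the lowest member. Of these, 25.8% were higher and 26.6% lower, against 37.3% and 29.4% of the members. In the SUDS3 knockdown 8 members rose, 23 fell and 20 did not pass. There 19.6% of all genes were called higher and 19.2% lower, and 35% and 25.9% of the 7266 genes, against 15.7% and 45.1% of the members. The members' share of falls was above both backgrounds there and their share of rises below both, and no test was made of these shares. The members were chosen with earlier results of these data known, so the shares only describe this list.

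The median absolute change of the members was near that of other genes. The median log2 fold change of the members was 0.07 in the PHF12 knockdown and -0.07 in the SUDS3 knockdown, beside 0.01 and 0.04 over the 7266 genes. Summed over all 51 members, the level was 101.5% of the control mean in the PHF12 knockdown, whose libraries overlapped the controls, and 96.5% in the SUDS3 knockdown, whose libraries all lay below them. The median absolute log2 fold change was 0.15 and 0.14 for members and 0.13 and 0.16 for the 7266 genes. With the PHF12 siRNA 7.84% of members and 6.21% of the 7266 genes changed by at least 0.5 on the log2 scale. With the SUDS3 siRNA 1.96% of members and 6.76% of the 7266 genes did. GINS1, with the PHF12 siRNA, was the only member to change at least 2-fold in either knockdown. Of the 51 members, 44 were called in at least 1 knockdown, 5 rose in both, 9 fell in both and 7 were called in opposite directions. The calls of the knockdowns were not crossed over all genes, so these counts have no background beside them. Both knockdown comparisons share their control libraries. The balance of calls in the PHF12 knockdown depended on the scaling and on 1 library, with 19 of 34 calls higher (55.9%) under TMM and 24 of 36 (66.7%) under upper-quartile scaling. Without PHF12 siRNA library 2 it turned, with 14 members higher and 16 lower (46.7% of calls higher).

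**Figure D1:**
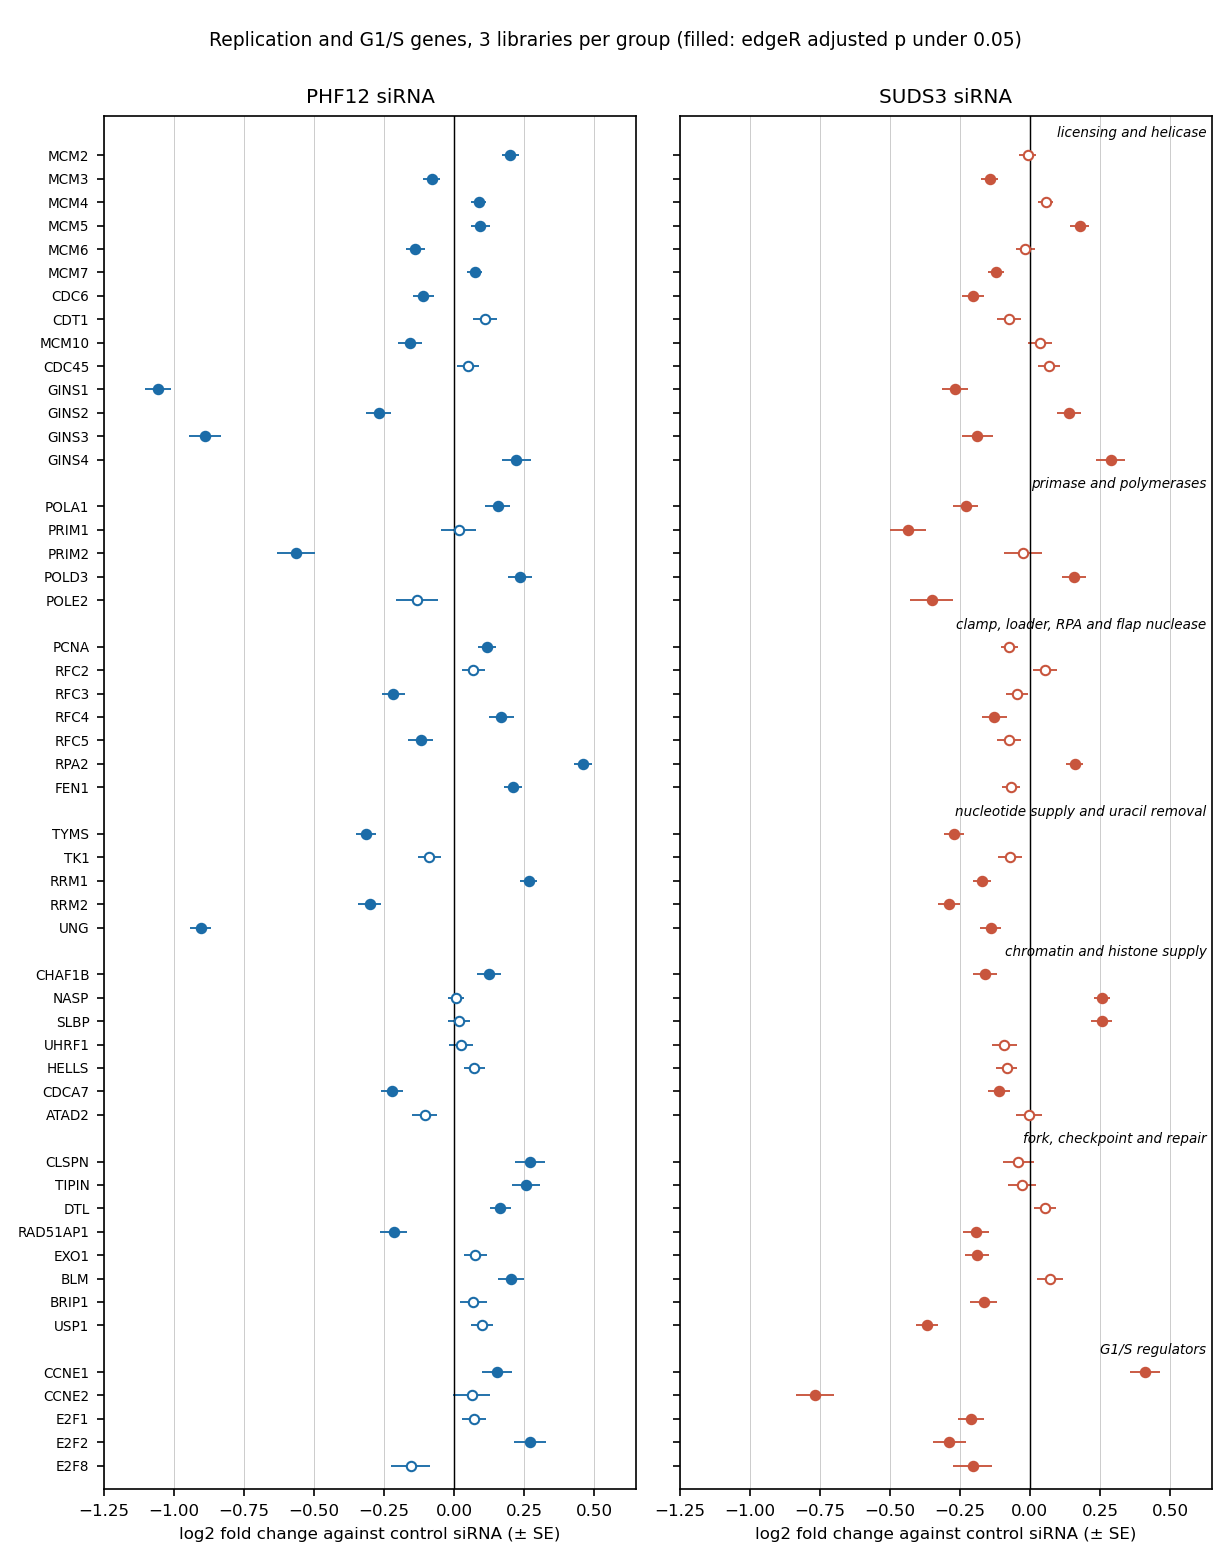
Log2 fold change against the control siRNA (horizontal axis) of all 51 members, grouped by role, with the PHF12 siRNA (left) and the SUDS3 siRNA (right). Points are edgeR estimates from 3 libraries per group, bars are standard errors and filled points passed an adjusted p under 0.05. GINS1, UNG, GINS3 and PRIM2 lie lowest on the left and CCNE2 on the right.

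The 14 licensing and helicase genes held the largest fall among the 51 members with the PHF12 siRNA, that of GINS1. With that siRNA 5 of the 14 rose and 7 fell, and with the SUDS3 siRNA 3 rose and 5 fell. Within the ring of MCM2 to MCM7 the subunits moved apart. MCM2 was at 294, 295 and 294 CPM with the control siRNA, 343, 334 and 339 with the PHF12 siRNA and 300.02, 294 and 284 with the SUDS3 siRNA. This gene overlaps TPRA1 on the opposite strand. MCM6 was at 245, 255 and 251 CPM (control), 222, 233 and 228 CPM (PHF12 siRNA) and 246, 241 and 256 CPM (SUDS3 siRNA). With the PHF12 siRNA all MCM2 libraries lay above the controls (log2 fold change 0.20, SE 0.03, edgeR adjusted p = 1.77e-06) and all MCM6 libraries below them (log2 fold change -0.14, SE 0.03, edgeR adjusted p = 0.0012), while the SUDS3 siRNA libraries of both genes overlapped the controls.

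MCM5 was at 194, 201 and 189.7 CPM with the control siRNA, 211, 206 and 206 with the PHF12 siRNA and 226, 218 and 217 with the SUDS3 siRNA, and was higher in both knockdowns (log2 fold changes 0.09 with the PHF12 and 0.18 with the SUDS3 siRNA). MCM3 was at 434, 452 and 442 CPM (control), 421, 419.97 and 415 CPM (PHF12 siRNA) and 389, 395 and 419 CPM (SUDS3 siRNA), and was lower in both (log2 fold changes -0.08 with the PHF12 and -0.14 with the SUDS3 siRNA). MCM7 was at 605, 604 and 574 CPM (control), 627, 623 and 625 CPM (PHF12 siRNA) and 541, 548 and 551 CPM (SUDS3 siRNA), above the controls with the PHF12 siRNA (log2 fold change 0.07) and below them with the SUDS3 siRNA (log2 fold change -0.12). The gene overlaps AP4M1 on the opposite strand. MCM4 was at 515, 524 and 534 CPM (control), 548, 567 and 555 CPM (PHF12 siRNA) and 546, 542 and 547 CPM (SUDS3 siRNA), a rise with the PHF12 siRNA (log2 fold change 0.09) and no call with the SUDS3 siRNA (log2 fold change 0.06, SE 0.03, edgeR adjusted p = 0.104). Summed over the ring, MCM2 to MCM7 stood at 103.2% of the control mean with the PHF12 siRNA and at 97.9% with the SUDS3 siRNA. In the PHF12 knockdown the calls of these 4 genes were each lost on leaving out a single library. That of MCM3 was lost without control library 2 or 3 or PHF12 siRNA library 1, 2 or 3 or SUDS3 siRNA library 1 or 2 (edgeR adjusted p between 0.0549 and 0.185). For MCM5 the call was lost without control library 1 or 3 or PHF12 siRNA library 1, 2 or 3 (edgeR adjusted p between 0.0544 and 0.126). For MCM7 it was lost without control library 2 or 3 or PHF12 siRNA library 1, 2 or 3 (edgeR adjusted p between 0.0504 and 0.184). The rise of MCM4 was lost without control library 1 or PHF12 siRNA library 2 (edgeR adjusted p between 0.0663 and 0.0718).

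GINS is a complex of 4 different subunits, GINS1 to GINS4, and these did not move together in either knockdown. GINS1 (ENSG00000101003, GRCh38 chromosome 20, 25407727 to 25452628, plus strand) was at 113, 107 and 115 CPM with the control siRNA, 52.3, 55.1 and 53.5 with the PHF12 siRNA and 96.2, 91.3 and 90.7 with the SUDS3 siRNA. All libraries of both knockdowns lay below the controls, and those of the PHF12 siRNA below those of the SUDS3 siRNA. GINS1 fell by 51.9% with the PHF12 siRNA (log2 fold change -1.06, SE 0.05, edgeR adjusted p = 5.82e-20) and fell by 16.9% with the SUDS3 siRNA (log2 fold change -0.27, SE 0.05, edgeR adjusted p = 9.79e-06). GINS3 (ENSG00000181938, GRCh38 chromosome 16, 58295080 to 58406144, plus strand), which overlaps a tested gene on the opposite strand, was at 63.7, 60.7 and 60.2 CPM (control), 32.3, 33.2 and 34.2 CPM (PHF12 siRNA) and 52.1, 54.4 and 55.6 CPM (SUDS3 siRNA). It fell by 46.04% with the PHF12 siRNA (log2 fold change -0.89, SE 0.06, edgeR adjusted p = 1.66e-15) and fell by 12.2% with the SUDS3 siRNA (log2 fold change -0.19, SE 0.05, edgeR adjusted p = 0.00553), again without overlap with the controls.

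GINS2, which overlaps GSE1 on the opposite strand, was at 118, 119 and 108 CPM with the control siRNA, 95.2, 93.1 and 98.7 with the PHF12 siRNA and 124, 126 and 131 with the SUDS3 siRNA. Its libraries lay below the controls with the PHF12 siRNA (log2 fold change -0.27, SE 0.04, edgeR adjusted p = 5.06e-06) and above them with the SUDS3 siRNA (log2 fold change 0.14, SE 0.04, edgeR adjusted p = 0.00984). The rise was lost without control library 3 or SUDS3 siRNA library 3 (edgeR adjusted p between 0.0582 and 0.107). GINS4 was at 67.4, 64.2 and 69.4 CPM (control), 73.9, 85.2 and 75.1 CPM (PHF12 siRNA) and 79.98, 81.9 and 83.4 CPM (SUDS3 siRNA) and rose in both knockdowns (log2 fold change 0.22, SE 0.05, edgeR adjusted p = 0.000877 with the PHF12 siRNA, and log2 fold change 0.29, SE 0.05, edgeR adjusted p = 2.54e-05 with the SUDS3 siRNA). The summed level of the 4 subunits was 73.3% of the control mean in the PHF12 knockdown and 100.02% in the SUDS3 knockdown, where GINS1 and GINS3 fell and GINS2 and GINS4 rose.

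**Figure D2:**
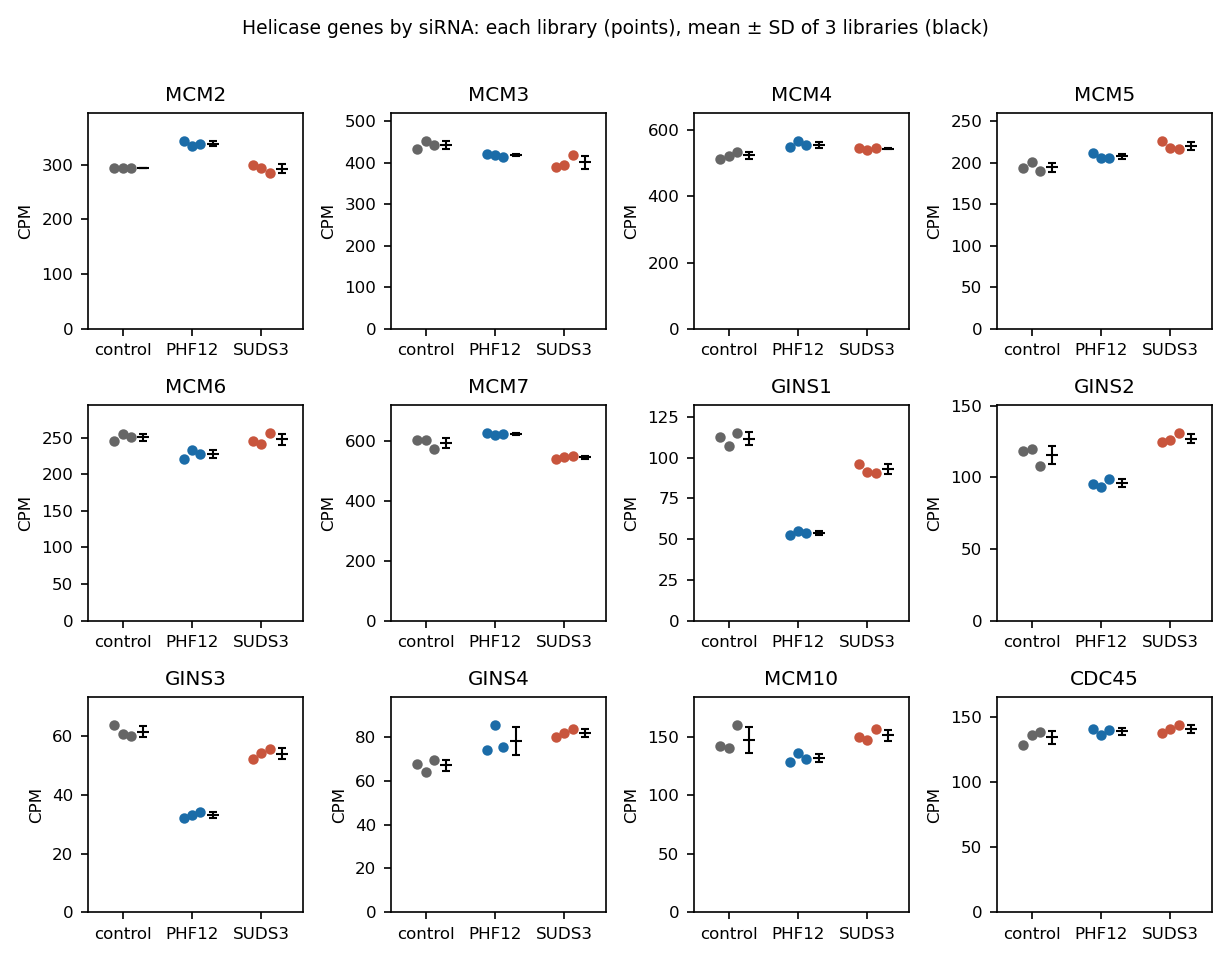
Level (vertical axis, CPM after TMM scaling, from 0) of 12 helicase genes in each library (points) of cells with control, PHF12 or SUDS3 siRNA, with the mean and SD of 3 libraries in black. GINS1 and GINS3 are lowest with the PHF12 siRNA, and GINS2 is below the controls with the PHF12 siRNA and above them with the SUDS3 siRNA.

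Of the other 4 licensing and helicase genes, CDC6 and MCM10 were called in at least 1 knockdown. CDC6, an origin loader, was at 195, 197 and 204 CPM with the control siRNA, 184, 187 and 182 with the PHF12 siRNA and 165, 169 and 184 with the SUDS3 siRNA, below the controls in both (log2 fold changes -0.11 with the PHF12 and -0.20 with the SUDS3 siRNA). The PHF12 call was lost without control library 2 or 3 or PHF12 siRNA library 1 or 3 (edgeR adjusted p between 0.0538 and 0.128). MCM10, which helps to activate the helicase, fell with the PHF12 siRNA (log2 fold change -0.16, SE 0.04, edgeR adjusted p = 0.00398) and was not called with the SUDS3 siRNA (log2 fold change 0.04). That fall was lost without control library 3 (edgeR adjusted p = 0.108). CDC45 (log2 fold changes 0.05 with the PHF12 and 0.07 with the SUDS3 siRNA) and CDT1 (log2 fold changes 0.11 with the PHF12 and -0.07 with the SUDS3 siRNA) passed in neither knockdown. CDT1 with the PHF12 siRNA lay just above the threshold (edgeR adjusted p = 0.0503), and it was called higher in all 8 alternatives that leave out no library (adjusted p between 0.00689 and 0.0351, from edgeR or DESeq2).

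Polymerase alpha and primase make the primers from which synthesis starts, and the 2 primase genes fell with different siRNAs. Of 5 primase and polymerase genes, 2 rose and 1 fell with the PHF12 siRNA, and 1 rose and 3 fell with the SUDS3 siRNA. PRIM2, the large primase subunit (ENSG00000146143, GRCh38 chromosome 6, 57314805 to 57646849, plus strand), was at 37.9, 40.7 and 38.96 CPM with the control siRNA, 24.9, 28.2 and 26.4 with the PHF12 siRNA and 37.5, 36.4 and 41.7 with the SUDS3 siRNA. Its libraries lay below the controls with the PHF12 siRNA (log2 fold change -0.56, SE 0.07, edgeR adjusted p = 2.58e-08) and overlapped them with the SUDS3 siRNA (log2 fold change -0.03, SE 0.07, edgeR adjusted p = 0.815). PRIM1, the catalytic primase subunit (ENSG00000198056, GRCh38 chromosome 12, 56731596 to 56752373, minus strand), did the reverse, at 38.6, 37.1 and 40.02 CPM (control), 38.4, 38.98 and 39.5 CPM (PHF12 siRNA) and 28.98, 28.4 and 28.05 CPM (SUDS3 siRNA). It was not called with the PHF12 siRNA (log2 fold change 0.02, SE 0.06, edgeR adjusted p = 0.891) and fell by 26.1% with the SUDS3 siRNA (log2 fold change -0.44, SE 0.06, edgeR adjusted p = 6.76e-07). PRIM1 overlaps HSD17B6 on the opposite strand and NACA on its own strand.

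POLA1, the catalytic subunit of polymerase alpha, was at 114, 115 and 114 CPM with the control siRNA, 122, 135 and 126 with the PHF12 siRNA and 94.2, 94.1 and 105 with the SUDS3 siRNA. It was above the controls with the PHF12 siRNA (log2 fold change 0.16) and below them with the SUDS3 siRNA (log2 fold change -0.23), and the rise was lost without PHF12 siRNA library 2 (edgeR adjusted p = 0.0882). POLE2, a subunit of polymerase epsilon, was at 30.3, 32.00 and 26.1 CPM (control), 26.5, 27.3 and 26.9 CPM (PHF12 siRNA) and 23.1, 22.6 and 23.7 CPM (SUDS3 siRNA). Its libraries overlapped the controls with the PHF12 siRNA (log2 fold change -0.13, SE 0.08, edgeR adjusted p = 0.2) and lay below them with the SUDS3 siRNA (log2 fold change -0.35, SE 0.08, edgeR adjusted p = 0.000312). POLD3, a subunit of polymerase delta, rose in both (log2 fold changes 0.24 with the PHF12 and 0.16 with the SUDS3 siRNA).

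Among the clamp, the loader, RPA and the flap nuclease, 4 of 7 genes rose and 2 fell with the PHF12 siRNA, and 1 rose and 1 fell with the SUDS3 siRNA. RPA2, a subunit of the RPA complex that coats unpaired DNA (ENSG00000117748, GRCh38 chromosome 1, 27891524 to 27914746, minus strand), was at 217, 223 and 225 CPM with the control siRNA, 303, 311 and 301 with the PHF12 siRNA and 243, 248 and 251 with the SUDS3 siRNA. The 3 groups did not overlap. RPA2 had the largest rise of the members in the PHF12 knockdown (log2 fold change 0.46, SE 0.03, edgeR adjusted p = 2.05e-14) and a smaller one in the SUDS3 knockdown (log2 fold change 0.16, SE 0.03, edgeR adjusted p = 9.82e-05). PCNA, the clamp (log2 fold change 0.12), and FEN1, which removes flaps at Okazaki fragments (log2 fold change 0.21), also rose with the PHF12 siRNA and were not called with the SUDS3 siRNA (log2 fold changes -0.07 and -0.07). RPA2, PCNA and FEN1 have pseudogenes named after them, which held at most 0, 4 and 12 counts in any library. FEN1 also overlaps TMEM258 on the opposite strand and FADS2 on its own strand.

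Of the 4 small RFC subunits measured here, RFC3 was at 152, 154 and 155 CPM with the control siRNA, 122, 137 and 137 with the PHF12 siRNA and 148, 148 and 150.04 with the SUDS3 siRNA. RFC4 was at 94.97, 105 and 102 CPM (control), 113, 116 and 111 CPM (PHF12 siRNA) and 93.7, 94.3 and 88.3 CPM (SUDS3 siRNA). All 3 of its PHF12 siRNA libraries lay above the controls, and all 3 of its SUDS3 siRNA libraries below them. RFC5 was at 135, 141 and 142 CPM (control), 119, 130.5 and 135 CPM (PHF12 siRNA) and 125, 135 and 136 CPM (SUDS3 siRNA). RFC2 was at 125, 119.5 and 128 CPM (control), 130.00, 137 and 124 CPM (PHF12 siRNA) and 127, 126 and 134 CPM (SUDS3 siRNA). In the PHF12 knockdown RFC3 fell (log2 fold change -0.22), RFC5 fell (log2 fold change -0.12), RFC4 rose (log2 fold change 0.17) and RFC2 was not called (log2 fold change 0.07), and their sum was 97.3% of the control mean. With the SUDS3 siRNA only RFC4 was called, lower (log2 fold change -0.13), and the sum was 97.0%. The RFC5 call was lost without control library 2 or 3 or PHF12 siRNA library 1 or SUDS3 siRNA library 2 (edgeR adjusted p between 0.0598 and 0.298), and the RFC4 fall was lost without control library 2 or 3 or SUDS3 siRNA library 3 (edgeR adjusted p between 0.0609 and 0.162). RFC4 overlaps EIF4A2 and RFC5 overlaps WSB2, each on the opposite strand.

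Of the 5 genes of nucleotide supply and uracil removal, 3 fell and 1 rose with the PHF12 siRNA, and 4 fell and 0 rose with the SUDS3 siRNA. Ribonucleotide reductase, which makes deoxyribonucleotides, has a large subunit, RRM1, and a small subunit, RRM2. RRM1 (ENSG00000167325, GRCh38 chromosome 11, 4094707 to 4138876, plus strand) was at 359, 359.6 and 372 CPM with the control siRNA, 431, 442 and 438 with the PHF12 siRNA and 314, 319 and 335 with the SUDS3 siRNA, 3 groups with no overlap (log2 fold change 0.27, SE 0.03, edgeR adjusted p = 6.51e-09 with the PHF12 siRNA, and log2 fold change -0.17, SE 0.03, edgeR adjusted p = 2.09e-05 with the SUDS3 siRNA). RRM2 (ENSG00000171848, GRCh38 chromosome 2, 10120698 to 10131419, plus strand) was at 224, 212 and 221 CPM (control), 167, 193 and 173 CPM (PHF12 siRNA) and 182, 175 and 181 CPM (SUDS3 siRNA), lower in both knockdowns (log2 fold change -0.30, SE 0.04, edgeR adjusted p = 1.66e-07 with the PHF12 siRNA, and log2 fold change -0.29, SE 0.04, edgeR adjusted p = 3.58e-07 with the SUDS3 siRNA). The subunits thus had opposite signs with the PHF12 siRNA and the same sign with the SUDS3 siRNA. RRM2 has pseudogenes named after it.

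TYMS, which makes thymidylate (ENSG00000176890, GRCh38 chromosome 18, 657604 to 673578, plus strand), was at 192, 197 and 196 CPM with the control siRNA, 153, 159.8 and 159 with the PHF12 siRNA and 157, 162 and 167 with the SUDS3 siRNA. Both knockdowns lay below the controls and overlapped each other (log2 fold changes -0.31 with the PHF12 and -0.27 with the SUDS3 siRNA). TYMS overlaps ENOSF1 and TYMSOS on the opposite strand. TK1, which salvages thymidine, passed in neither (log2 fold changes -0.09 with the PHF12 and -0.07 with the SUDS3 siRNA). UNG, the glycosylase that removes uracil from DNA (ENSG00000076248, GRCh38 chromosome 12, 109097574 to 109110992, plus strand), was at 155, 161 and 165 CPM (control), 85.01, 85.6 and 86.03 CPM (PHF12 siRNA) and 145, 145 and 146 CPM (SUDS3 siRNA). UNG fell by 46.6% with the PHF12 siRNA (log2 fold change -0.91, SE 0.04, edgeR adjusted p = 2.34e-20) and fell by 9.23% with the SUDS3 siRNA (log2 fold change -0.14, SE 0.04, edgeR adjusted p = 0.00306), with no overlap between the 3 groups.

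Of the 7 genes of chromatin and histone supply, 1 rose and 1 fell with the PHF12 siRNA, and 2 rose and 2 fell with the SUDS3 siRNA. NASP, a chaperone of histone H3, was at 479.9, 465 and 488 CPM with the control siRNA, 481, 479 and 479.6 with the PHF12 siRNA and 552, 574 and 588 with the SUDS3 siRNA. SLBP, which binds the stem-loop of histone mRNA, was at 126, 128 and 127 CPM (control), 126, 135 and 125 CPM (PHF12 siRNA) and 153, 148 and 153 CPM (SUDS3 siRNA). Both rose with the SUDS3 siRNA, where all libraries were above the controls (log2 fold change 0.26, SE 0.03, edgeR adjusted p = 3.72e-09 for NASP, and log2 fold change 0.26, SE 0.04, edgeR adjusted p = 1.88e-06 for SLBP), and neither was called with the PHF12 siRNA (log2 fold changes 0.01 and 0.02). CHAF1B, a subunit of the chromatin assembly factor, was at 112, 108 and 106 CPM (control), 115, 121 and 118 CPM (PHF12 siRNA) and 93.1, 99.96 and 98.2 CPM (SUDS3 siRNA), above the controls with the PHF12 siRNA (log2 fold change 0.12) and below them with the SUDS3 siRNA (log2 fold change -0.16). The rise was lost without control library 2 or 3 or PHF12 siRNA library 2 or 3 (edgeR adjusted p between 0.0567 and 0.114). CDCA7, a partner of the remodeller HELLS, fell in both (log2 fold changes -0.22 with the PHF12 and -0.11 with the SUDS3 siRNA), and the SUDS3 call was lost without control library 2 or 3 or SUDS3 siRNA library 1 or 2 (edgeR adjusted p between 0.0551 and 0.126). UHRF1, which maintains DNA methylation (log2 fold changes 0.02 with the PHF12 and -0.09 with the SUDS3 siRNA), HELLS (0.07 and -0.08) and ATAD2, a bromodomain protein (-0.10 and -0.00), passed in neither.

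Of the 8 fork, checkpoint and repair genes, 4 rose and 1 fell with the PHF12 siRNA, and 0 rose and 4 fell with the SUDS3 siRNA. CLSPN, a mediator of the replication checkpoint, was at 59.8, 64.95 and 71.6 CPM with the control siRNA, 76.5, 82.3 and 77.8 with the PHF12 siRNA and 63.5, 64.5 and 62.7 with the SUDS3 siRNA. TIPIN, a fork protection protein, was at 73.03, 77.6 and 82.2 CPM (control), 90.6, 90.7 and 97.1 CPM (PHF12 siRNA) and 73.2, 74.97 and 80.2 CPM (SUDS3 siRNA). In both genes the PHF12 siRNA libraries lay above the controls (log2 fold change 0.27, SE 0.05, edgeR adjusted p = 0.000129 for CLSPN, and log2 fold change 0.26, SE 0.05, edgeR adjusted p = 8.28e-05 for TIPIN) and the SUDS3 siRNA libraries overlapped them (log2 fold changes -0.04 and -0.03). DTL, which directs CDT1 to degradation (log2 fold change 0.17), and BLM, a helicase (log2 fold change 0.20), rose with the PHF12 siRNA as well.

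USP1, which removes ubiquitin from PCNA and FANCD2 (ENSG00000162607, GRCh38 chromosome 1, 62436297 to 62451804, plus strand), was at 322, 342 and 370.4 CPM with the control siRNA, 367, 377 and 364 with the PHF12 siRNA and 261, 253 and 286 with the SUDS3 siRNA. Its SUDS3 siRNA libraries lay below the controls, a fall of 22.5% (log2 fold change -0.37, SE 0.04, edgeR adjusted p = 1.9e-09), and its PHF12 siRNA libraries overlapped them (log2 fold change 0.10, SE 0.04, edgeR adjusted p = 0.0509). EXO1, an exonuclease of mismatch repair (log2 fold change -0.19), and BRIP1, a repair helicase (log2 fold change -0.16), fell with the SUDS3 siRNA and were not called with the PHF12 siRNA. The difference between the siRNAs was itself called (log2 fold change -0.27, SE 0.04, edgeR adjusted p = 1.42e-06 for EXO1, and log2 fold change -0.23, SE 0.05, edgeR adjusted p = 9.97e-05 for BRIP1). RAD51AP1, a factor of homologous recombination, fell in both (log2 fold changes -0.22 with the PHF12 and -0.19 with the SUDS3 siRNA).

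The 5 G1/S regulators held both the largest fall and the largest rise of the members with the SUDS3 siRNA. The cyclins E activate CDK2 at the G1/S boundary, and their genes moved apart. CCNE2 was at 51.6, 47.3 and 55.9 CPM with the control siRNA, 48.1, 56.6 and 56.9 with the PHF12 siRNA and 29.1, 30.2 and 31.7 with the SUDS3 siRNA. CCNE1 was at 53.3, 48.6 and 48.9 CPM (control), 55.3, 56.5 and 55.7 CPM (PHF12 siRNA) and 68.98, 66.4 and 65.2 CPM (SUDS3 siRNA). All SUDS3 siRNA libraries of CCNE2 lay below every other library and all those of CCNE1 above every other library. CCNE2 fell by 41.2% (log2 fold change -0.77, SE 0.07, edgeR adjusted p = 1.97e-11), the largest fall of the members in that knockdown, and CCNE1 had their largest rise (log2 fold change 0.41, SE 0.05, edgeR adjusted p = 7.2e-08). In the PHF12 knockdown CCNE2 was not called (log2 fold change 0.06) and CCNE1 rose (log2 fold change 0.15, SE 0.05, edgeR adjusted p = 0.0252), a rise that was lost without control library 2 or 3 or PHF12 siRNA library 2 or 3 (edgeR adjusted p between 0.0563 and 0.123). CCNE2 overlaps NDUFAF6 and INTS8 on the opposite strand.

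Of the E2F factors, E2F1 and E2F2 activate S-phase genes and E2F8 represses them. E2F2 (ENSG00000007968, GRCh38 chromosome 1, 23506430 to 23531220, minus strand) was at 45.1, 45.3 and 49.5 CPM with the control siRNA, 58.3, 54.96 and 55.4 with the PHF12 siRNA and 37.7, 39.5 and 37.4 with the SUDS3 siRNA. The 3 groups did not overlap, above the controls with the PHF12 siRNA (log2 fold change 0.27, SE 0.06, edgeR adjusted p = 0.000267) and below them with the SUDS3 siRNA (log2 fold change -0.29, SE 0.06, edgeR adjusted p = 0.000124). E2F1 (ENSG00000101412, GRCh38 chromosome 20, 33675683 to 33686404, minus strand) was at 94.1, 89.6 and 94.8 CPM (control), 95.2, 98.3 and 99.00 CPM (PHF12 siRNA) and 77.9, 83.5 and 79.1 CPM (SUDS3 siRNA), lower with the SUDS3 siRNA (log2 fold change -0.21, SE 0.04, edgeR adjusted p = 0.000236) and not called with the PHF12 siRNA (log2 fold change 0.07, SE 0.04, edgeR adjusted p = 0.251). E2F8 fell with the SUDS3 siRNA (log2 fold change -0.20, SE 0.07, edgeR adjusted p = 0.0174), and this call was lost without control library 2 or SUDS3 siRNA library 2 (edgeR adjusted p between 0.0892 and 0.094). Of the 5 regulators, 4 fell and 1 rose with the SUDS3 siRNA, and 2 rose and 0 fell with the PHF12 siRNA.

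**Figure D3:**
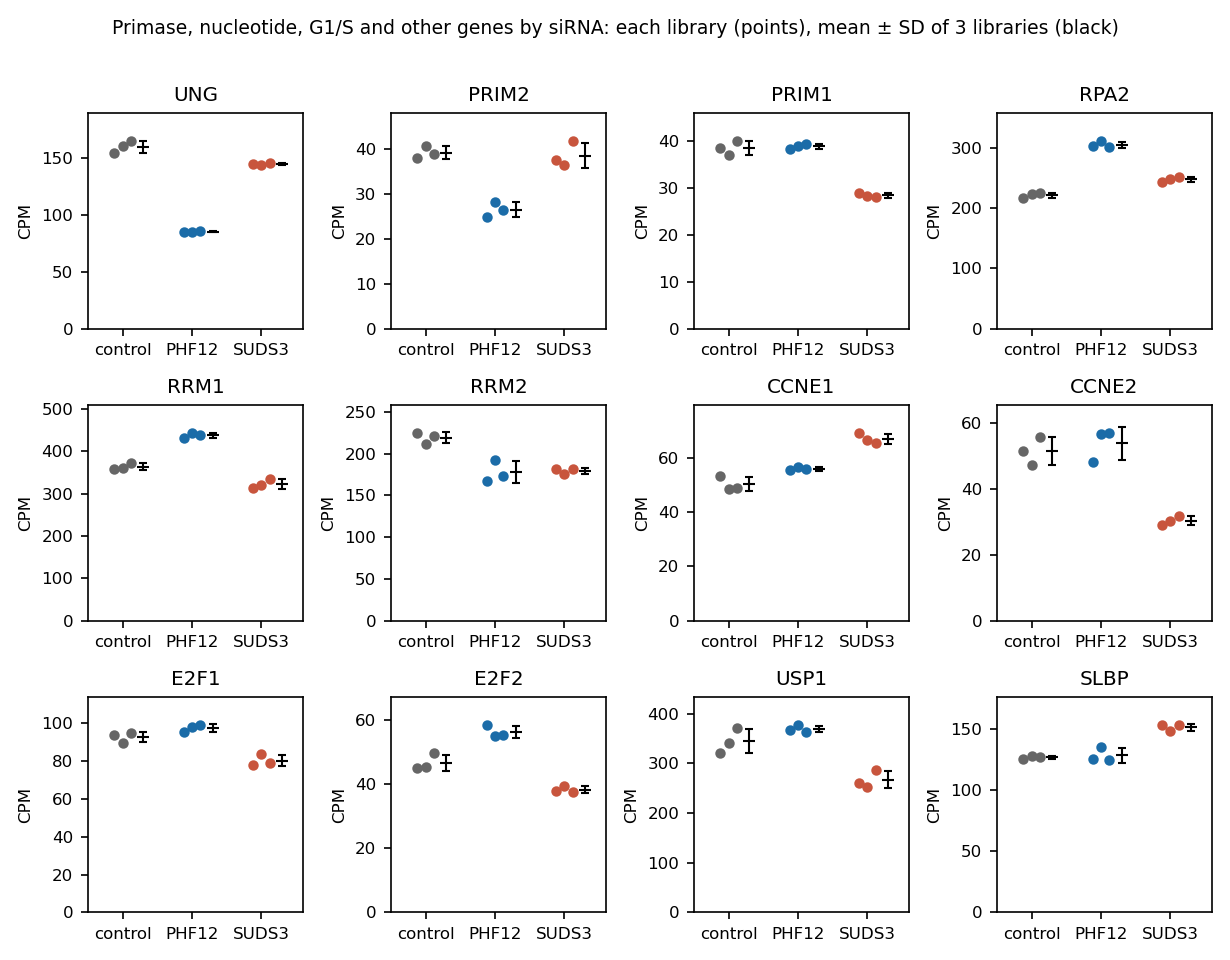
Level (vertical axis, CPM after TMM scaling, from 0) of 12 further members in each library (points) of cells with control, PHF12 or SUDS3 siRNA, with the mean and SD of 3 libraries in black. UNG and PRIM2 are lowest with the PHF12 siRNA, and PRIM1, CCNE2 and USP1 are lowest with the SUDS3 siRNA.

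Set directly against each other, the siRNAs left 13 members higher and 25 lower with the SUDS3 siRNA than with the PHF12 siRNA, and 13 not called. Over all genes 22.7% were higher and 21.1% lower, and over the 7266 genes 37.1% and 29.1%, against 25.5% and 49.0% of the members. The members lower with the SUDS3 siRNA included CCNE2 (log2 fold change -0.83, SE 0.07, edgeR adjusted p = 9.42e-13), E2F2 (log2 fold change -0.56, SE 0.06, edgeR adjusted p = 3.13e-10), USP1 (log2 fold change -0.47, SE 0.04, edgeR adjusted p = 2.51e-12), PRIM1 (log2 fold change -0.45, SE 0.06, edgeR adjusted p = 1.77e-07) and RRM1 (log2 fold change -0.44, SE 0.03, edgeR adjusted p = 1.34e-14). Those higher with the SUDS3 siRNA were led by GINS1 (log2 fold change 0.79, SE 0.05, edgeR adjusted p = 1.4e-16), UNG (log2 fold change 0.77, SE 0.04, edgeR adjusted p = 1.76e-18), GINS3 (log2 fold change 0.70, SE 0.06, edgeR adjusted p = 4.92e-13), PRIM2 (log2 fold change 0.54, SE 0.07, edgeR adjusted p = 3.24e-08) and GINS2 (log2 fold change 0.41, SE 0.04, edgeR adjusted p = 5.86e-10). Of the 7 members called in opposite directions against the control, MCM7, POLA1, RFC4, RRM1, CHAF1B and E2F2 rose with the PHF12 siRNA and fell with the SUDS3 siRNA, while GINS2 fell with the PHF12 siRNA and rose with the SUDS3 siRNA. In all 7 the difference between the siRNAs was called, from -0.56 in E2F2 to 0.41 in GINS2. Against the control, only RRM1 and E2F2 of the 7 kept both opposite calls in every fit that left out a library. All 8 fork and repair genes except RAD51AP1 were lower with the SUDS3 siRNA than with the PHF12 siRNA. Among the lower calls, those of CDC6, DTL and BLM had libraries that overlapped between the siRNAs. The CDC6 call was lost without control library 2 or PHF12 siRNA library 1, 2 or 3 or SUDS3 siRNA library 1 or 2 (edgeR adjusted p between 0.0627 and 0.225). The DTL call was lost without PHF12 siRNA library 2 or SUDS3 siRNA library 1 or 2 (edgeR adjusted p between 0.0818 and 0.124). That of BLM was lost without PHF12 siRNA library 2 or SUDS3 siRNA library 1 (edgeR adjusted p between 0.116 and 0.182). The UHRF1 call was lost without PHF12 siRNA library 1 or 3 or SUDS3 siRNA library 1 or 2 (edgeR adjusted p between 0.0601 and 0.175). That of POLE2 was lost without PHF12 siRNA library 2 or SUDS3 siRNA library 2 (edgeR adjusted p between 0.0561 and 0.0665). On the higher side, the MCM5 call was lost without PHF12 siRNA library 2 or 3 or SUDS3 siRNA library 1, 2 or 3 (edgeR adjusted p between 0.0536 and 0.244). That of CDCA7 was lost without PHF12 siRNA library 1 or 2 or SUDS3 siRNA library 2 or 3 (edgeR adjusted p between 0.0548 and 0.101).

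Levels were compared between genes as control CPM per kb of exon. They spanned 33.4 times, from 8.40 ± 0.294 in PRIM2 to 280.3 ± 9.21 in PCNA (mean ± SD, n = 3), with a median of 35.3. MCM7 (135 ± 3.96), MCM3 (121 ± 2.45) and RPA2 (109.9 ± 2.09) followed PCNA, and each differed from its neighbour in this order by more than the spread. At the low end E2F2 (8.55 ± 0.458), BRIP1 (8.75 ± 0.0904) and E2F8 (8.84 ± 0.348) followed PRIM2, each within the spread of its neighbour, and POLE2 came next (9.97 ± 1.03). GINS2 (35.3 ± 1.91) and GINS1 (27.4 ± 0.996) were higher per kb in controls than GINS4 (12.2 ± 0.48) and GINS3 (12.1 ± 0.372), which lay within the spread of each other. A gene's exon length here is the union of its annotated exons, which can be longer than any of its transcripts.

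The promoters of the members were searched for an E2F motif. The list was not chosen by motif, but many of its genes are transcribed under E2F factors, as described above. A share of matches above that of other genes can therefore come with the choice of list, and the shares below test nothing. The motif searched was the E2F core TTTGGCGC, TTTCGCGC, TTTCCCGC or TTTGCCGC, on both strands, with overlapping matches counted. The window was 300 bases, 250 before to 50 after the start in RefSeq (GRCh38.p14). MCM4, MCM5, GINS4, POLD3, RPA2, ATAD2, CCNE2 and E2F8 had no window in the table. Of 43 members with a window, 24 held a match (55.8%). So did 855 of 15842 protein-coding genes (5.40%) and 462 of the 5993 at or above the lowest member's mean CPM (7.71%). In the lists read below, 17 of 47 other replication and G1/S genes (36.2%) and 3 of 33 G2 and M genes (9.09%) held one. By direction, among members with a window, 8 of 14 that rose with the PHF12 siRNA, 10 of 15 that fell and 6 of 14 that were not called held a match. For the SUDS3 siRNA the counts were 1 of 4, 13 of 21 and 10 of 18. The missing windows were uneven by direction. MCM4, MCM5, GINS4, POLD3 and RPA2 rose with the PHF12 siRNA, and no member without a window fell there. With the SUDS3 siRNA MCM5, GINS4, POLD3 and RPA2 rose, and CCNE2 and E2F8 fell. The counts by direction therefore leave out many of the rises. A match is a description of letters, and binding was not measured. The stretches before the start are printed for E2F1 and E2F2, which encode the factors themselves, for GINS2, called in opposite directions, and for MCM6, with the most matches among the 4. Capitals mark the motif. In MCM6 overlapping matches on both strands run together, so a capital run holds more than 1 match.
E2F1 (chr20:33686386-33686635, minus strand): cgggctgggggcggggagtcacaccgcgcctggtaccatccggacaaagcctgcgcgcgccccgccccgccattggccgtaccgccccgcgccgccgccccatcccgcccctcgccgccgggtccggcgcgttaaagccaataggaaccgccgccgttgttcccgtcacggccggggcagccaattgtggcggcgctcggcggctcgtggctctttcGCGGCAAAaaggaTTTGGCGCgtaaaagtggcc
E2F2 (chr1:23531234-23531483, minus strand): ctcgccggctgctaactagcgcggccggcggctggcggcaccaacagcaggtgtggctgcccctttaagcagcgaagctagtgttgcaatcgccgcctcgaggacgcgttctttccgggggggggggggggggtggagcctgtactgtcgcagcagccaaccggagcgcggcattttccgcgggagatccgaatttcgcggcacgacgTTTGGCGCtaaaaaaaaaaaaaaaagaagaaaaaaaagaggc
GINS2 (chr16:85688955-85689204, minus strand): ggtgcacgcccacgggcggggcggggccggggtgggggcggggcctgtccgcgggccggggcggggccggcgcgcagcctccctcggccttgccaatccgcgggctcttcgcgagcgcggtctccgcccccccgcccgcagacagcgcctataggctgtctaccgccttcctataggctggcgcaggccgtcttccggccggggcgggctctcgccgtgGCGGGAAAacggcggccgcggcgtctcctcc
MCM6 (chr2:135876444-135876693, minus strand): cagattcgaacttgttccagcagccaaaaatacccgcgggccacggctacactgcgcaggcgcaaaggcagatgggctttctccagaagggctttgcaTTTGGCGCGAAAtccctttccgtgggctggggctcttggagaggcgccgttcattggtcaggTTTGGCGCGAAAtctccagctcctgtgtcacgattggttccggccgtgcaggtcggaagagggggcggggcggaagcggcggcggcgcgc

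An siRNA can lower transcripts other than its target through short matches in their 3′ UTR. The sequences of these siRNAs were not used here. An earlier look at these same fold changes over all genes had picked the hexamer AATCAC for falls with the PHF12 siRNA and TACATT for falls with the SUDS3 siRNA, so the values that follow describe where the members lie and test nothing. AATCAC was in the longest annotated 3′ UTR of 16 of 51 members (31.4%) and of 4231 of 13770 protein-coding genes tested (30.7%). With the PHF12 siRNA, 9 of these 16 members fell and 4 rose, with a median log2 fold change of -0.12, and 6 of the 35 members without it fell and 15 rose, with a median of 0.07. Among the 4231 genes with the hexamer 38.2% fell and 11.1% rose, and among those without it 13.5% fell and 21.8% rose. Over all protein-coding genes the medians were -0.12 with the hexamer and 0.04 without. In the SUDS3 knockdown 9 of the same 16 members fell and 1 rose (median -0.15), and 14 of the 35 fell and 7 rose (median -0.07), beside medians of -0.02 and 0.00 over all protein-coding genes, of which 26.1% with the hexamer and 21.6% without it fell. The 4 members that fell by more than 0.5 on the log2 scale with the PHF12 siRNA, GINS1, UNG, GINS3 and PRIM2, all held it, as did RRM2, MCM6, MCM10, CDC6 and RAD51AP1 among the smaller falls. GINS2, TYMS, CDCA7, RFC3, RFC5 and MCM3 fell without it. E2F2, GINS4, CHAF1B and MCM4 held it and rose. Whether the hexamer has a part in any of these falls was not tested. The sites of the 4 largest falls are printed with AATCAC in capitals, on GRCh38, plus strand.
GINS1 site nearer the stop codon (chr20:25446354-25446383): agctgtatctgtAATCACagcattcctaca
GINS1 site farther from it (chr20:25446539-25446568): tacacattttcaAATCACatgcaagtgaag
UNG (chr12:109110756-109110785): ttaaccgactgaAATCACtttgggatattt
GINS3 (chr16:58404994-58405023): ttcctaaataagAATCACtgccatataata
PRIM2 (chr6:57646774-57646803): gttttaactcttAATCACtttgtaattttg

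TACATT was in 19 of 51 members (37.3%) and in 5633 of 13770 protein-coding genes (40.9%). With the SUDS3 siRNA, 9 of the 19 members with it fell and 3 rose (median -0.09), and 14 of the 32 without it fell and 5 rose (median -0.07). Over all protein-coding genes 31.4% of those with it fell and 19.9% rose (median -0.06), and 17.2% of those without it fell and 28.3% rose (median 0.04). In the PHF12 knockdown 7 of the 19 fell and 5 rose (median 0.06), beside 26.4% and 16.8% of the genes with it. The 5 largest falls of members in the SUDS3 knockdown were in CCNE2, PRIM1, USP1, POLE2 and RRM2, of which PRIM1 and POLE2 hold no TACATT and the others hold 2 each. The USP1 sites are printed as the examples among the largest falls, with TACATT in capitals, on GRCh38, plus strand.
USP1 site nearer the stop codon (chr1:62451382-62451411): aatctcattcagTACATTtagttttataag
USP1 site farther from it (chr1:62451473-62451502): caatggtgtatgTACATTttgtgccttgat

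**Figure D4:**
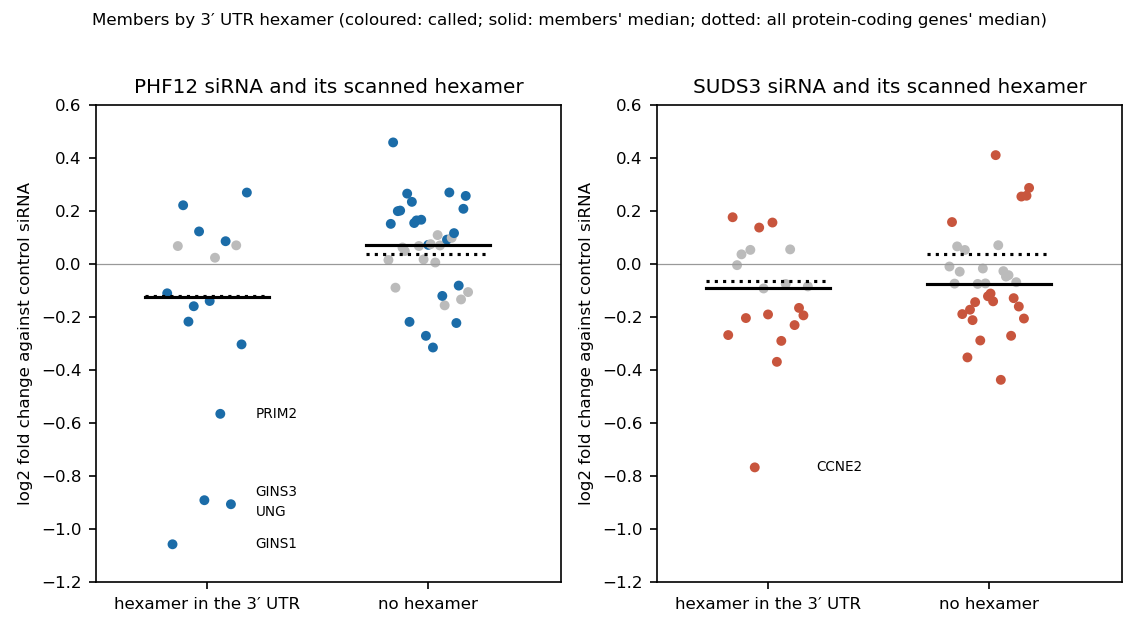
Log2 fold change against the control siRNA (vertical axis) of the 51 members with and without the hexamer AATCAC (PHF12 siRNA, left) or TACATT (SUDS3 siRNA, right) in the longest annotated 3′ UTR. Coloured points were called, solid lines are the members' medians and dotted lines the medians of all protein-coding genes: on the left the members' medians are -0.12 with the hexamer and 0.07 without, and on the right -0.09 and -0.07.

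Other genes of replication and the G1/S transition, 59 in all, were read from the same fit. Of the 7266 genes, 25.8% rose and 26.6% fell with the PHF12 siRNA, and 35% and 25.9% with the SUDS3 siRNA. Of the 59, 21 rose (35.6%) and 15 fell (25.4%) with the PHF12 siRNA (median 0.01), beside 37.3% and 29.4% of the members. With the SUDS3 siRNA 10 of the 59 rose (16.9%) and 23 fell (39.0%, median -0.04), beside 15.7% and 45.1% of the members. The largest falls with the PHF12 siRNA were in the phosphatase gene CDC25A (log2 fold change -1.24, SE 0.04, edgeR adjusted p = 4.58e-25), in cyclin A gene CCNA2 (log2 fold change -0.96, SE 0.04, edgeR adjusted p = 4.57e-21) and in SKP2, a ubiquitin ligase subunit (log2 fold change -0.50, SE 0.04, edgeR adjusted p = 5.63e-12). AATCAC was in the 3′ UTR of these 3 and of 21 of the 59 genes in all, beside 30.7% of protein-coding genes tested. It was in 11 of 15 that fell with the PHF12 siRNA, 3 of 21 that rose and 7 of 23 not called. These counts test nothing, because the hexamer was picked from falls over all genes with the PHF12 siRNA. The largest rises there were in RNASEH2A (log2 fold change 0.61, at 3.10 ± 0.0766 CPM in controls), CHTF18 (log2 fold change 0.50) and RECQL4 (log2 fold change 0.41), none of which holds the hexamer. With the SUDS3 siRNA the largest falls were in E2F5 (log2 fold change -1.55, SE 0.07, edgeR adjusted p = 2.52e-19), POLE4, a polymerase epsilon subunit (log2 fold change -0.85, SE 0.08, edgeR adjusted p = 1.63e-10), and E2F3 (log2 fold change -0.75, SE 0.04, edgeR adjusted p = 3.38e-16), and the largest called rises in E2F4 (log2 fold change 0.29), CDC25A (log2 fold change 0.28) and ESCO2 (log2 fold change 0.27). CDC25A was thus the largest fall of this list with the PHF12 siRNA and among its largest rises with the SUDS3 siRNA.

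Genes of the later G2 and M phases, 38 in all, were read in the same way. With the SUDS3 siRNA 12 rose (31.6%) and 6 fell (15.8%), with a median of 0.03, beside 15.7% and 45.1% of the 51 members and 35% and 25.9% of the 7266 genes. For the PHF12 siRNA, 16 rose (42.1%) and 6 fell (15.8%), with a median of 0.08, beside 37.3% and 29.4% of the members and 25.8% and 26.6% of the 7266 genes. The lowest level of the 7266 genes was set by the 51 members and not by this list. Over all 18088 genes 14.8% rose and 17.1% fell with the PHF12 siRNA, and 19.6% and 19.2% with the SUDS3 siRNA. No test was made of the difference between the lists. Falls with the PHF12 siRNA were led by PRC1 (log2 fold change -0.93), BUB1 (log2 fold change -0.51) and KIF23 (log2 fold change -0.33), and rises by TTK (log2 fold change 0.56), NDC80 (log2 fold change 0.55) and KIF18B (log2 fold change 0.37). Falls with the SUDS3 siRNA were led by CENPA (log2 fold change -0.78), AURKB (log2 fold change -0.33) and ANLN (log2 fold change -0.22), and rises by CDCA8 (log2 fold change 0.32), TTK (log2 fold change 0.30) and KIF20A (log2 fold change 0.24).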

How the data were processed

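RNA abundance was measured in 9 libraries, 3 per siRNA. Per the labels' protocols, poly-A stranded libraries were made with a TruSeq kit. The tools named in the submitters' processing notes are Trimmomatic 0.36, HISAT2 2.1.0 and HTSeq, with build GRCh38, and no source used here states how strand was treated in counting. The tables that the authors deposited hold whole-number counts per gene, of which 96.1% above 0 are multiples of 4, and TPM. A fragment may therefore have been counted 4 times, which no source used here states, and division by 4 was run as an alternative. The gene lengths implied by the deposited TPM were unrelated to annotated exon lengths (Spearman 0.0085 across 9444 genes), so TPM was not used for levels.

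The main test was edgeR's quasi-likelihood F-test (edgeR 4.0.16, R 4.3.3) on all 9 libraries, after filterByExpr (minimum count 10, by group) and TMM scaling, with robust dispersion and Benjamini-Hochberg adjustment over 18088 genes at 0.05. Libraries of a group differed beyond counting error (chi-square per degree of freedom 1.38 to 2.21, computed on the counts divided by 4). Levels per kb use GENCODE 29 exon unions. The members and lists were chosen with earlier results of these data known. Values in each library are given for PHF12 and SUDS3, for the 5 largest rises and falls of each comparison, for members called in opposite directions and for complexes described as a whole, and of the wider lists the 3 largest rises and falls are named. A total of 17 alternatives were run, among them DESeq2 1.42.0, 9 of which leave out a library.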

Additional observations from a re-analysis of the deposited data

How the results depend on the processing

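No call of a member reversed under any of the 17 alternatives. Of the members called with the PHF12 siRNA, 13 of 19 rises and 11 of 15 falls kept their call in all 17, and with the SUDS3 siRNA 7 of 8 rises and 20 of 23 falls did. Between the siRNAs 10 of 13 members higher and 20 of 25 lower with the SUDS3 siRNA kept theirs. On leaving out each library in turn, 14 to 21 members rose and 12 to 16 fell with the PHF12 siRNA, 7 to 9 rose and 21 to 24 fell with the SUDS3 siRNA, and 11 to 13 were higher and 21 to 26 lower between the siRNAs. Under upper-quartile scaling 24 rose and 12 fell in the PHF12 knockdown, 8 and 27 in the SUDS3 knockdown, and 10 and 28 between them. Settings other than a left-out library ended the PHF12 knockdown calls of CDC6 (2 settings, 0.0502 to 0.158), MCM3 (5 settings, 0.0545 to 0.325), MCM7 (no filter, 0.0605) and RFC5 (3 settings, 0.0545 to 0.161), and the calls between the siRNAs of CDC6 (no filter, 0.0534), CDCA7 (upper-quartile scaling, 0.388), MCM5 (6 settings, 0.0529 to 0.721) and MCM6 (upper-quartile scaling, 0.182), where each value is the adjusted p of edgeR or DESeq2. Calls were gained as well. In the PHF12 knockdown CDT1 gained one in 13 alternatives and USP1 in 10 (both higher), and HELLS, ATAD2, E2F8, EXO1, POLE2 and RFC2 in 1 to 3 each. In the SUDS3 knockdown PCNA gained one in 6 (lower), and FEN1, HELLS, MCM4, UHRF1 and BLM in 1 or 2 each. Between the siRNAs MCM3 gained one in 4, ATAD2 in 3, and MCM4, POLD3 and GINS4 in 1 each. The cause of these differences was not tested. Correlations of deviations from the group means lay between -0.016 and 0.030 for libraries of the same number in different groups. For libraries of different numbers they lay between -0.032 and 0.018. Library totals had the same order in all 3 groups, highest in library 2 and lowest in library 3. Whether libraries of the same number were handled together is not stated, and pairing by number is not excluded by these values. A fit with the replicate number as a block gave 21 rises and 16 falls in the PHF12 knockdown, 8 and 24 in the SUDS3 knockdown, and 14 and 25 between them. Log2 fold changes near 0.1, as in MCM3, MCM4, MCM5 and MCM7, lie at the limit of what 3 libraries per group resolved.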
